A study of Homo sapiens with 9 samples.

Results

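The genes described here are 9 plasma membrane amino acid transporter genes (SLC7A11, SLC3A2, SLC7A5, SLC7A1, SLC1A4, SLC1A5, SLC38A1, SLC38A2 and SLC6A9) and ASNS, which encodes asparagine synthetase. They were listed by gene name, with earlier results of these data known, and all 10 were found among the 58735 genes of the deposited count table. The other gene lists below were chosen in the same way. Counts of listed genes set beside the share over all genes are therefore descriptions and not tests. All 10 also passed the filter on low counts, which left 17023 genes to test. The data are 9 RNA sequencing libraries of OVCAR3, an established human ovarian carcinoma cell line, in 3 groups of 3 replicates collected at 72 h of culture. The control group carried a scramble short hairpin RNA and is labelled WT. The other groups carried hairpin shRNA#76 or hairpin shRNA#78 against GPX3, the gene of a secreted, selenium-containing glutathione peroxidase. Both are labelled as GPX3 knock-down, and they are called sh76 and sh78 below. All groups share the OVCAR3 background and a medium of RPMI 1640 with fetal bovine serum and insulin. The labels do not say whether a hairpin group is a clone or a pool of cells, nor whether replicates are separate cultures, so the p-values measure only the spread between these samples, which may be technical.

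Cells take up amino acids through importers and exchangers in the plasma membrane. SLC7A11 exports glutamate to import cystine, the oxidised dimer of cysteine that cells use to make glutathione, and SLC7A5 exchanges glutamine and other amino acids for large neutral ones such as leucine. Both are light chains that reach the cell surface bound to the heavy chain SLC3A2 (also called 4F2hc or CD98). SLC1A5, SLC38A1 and SLC38A2 supply glutamine, SLC1A4 exchanges serine, alanine and other small neutral amino acids, SLC7A1 takes up arginine and lysine, and SLC6A9 takes up glycine. ASNS makes asparagine from aspartate and glutamine. When amino acids are scarce or the endoplasmic reticulum is stressed, kinases phosphorylate the translation factor eIF2 alpha, and the transcription factor ATF4 is then made in larger amounts. ASNS and many of these transporter genes are known targets of ATF4, which with C/EBP partners binds composite sites called amino acid response elements. SLC7A11 is also a known target of NRF2, a regulator of antioxidant genes.

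Because ASNS is the textbook gene for such an element, the promoter windows of the genes in RefSeq (GRCh38.p14, 250 bases before to 50 bases after a start site) were searched for its core. The letters TGATGNAA were sought on both strands, the other strand reading TTNCATCA. A match lay in 1270 of 35116 windows of all genes (3.62%). The table held 16 windows for 9 of the 10 genes (all but SLC7A11), and 6 of these windows, each from a different gene, held a match. The matching stretches are shown because they allow the element to be compared between the genes; each is written 5′ to 3′ on the gene's own strand, with the match in capitals.
ASNS, chr7:97872458-97872487, minus strand: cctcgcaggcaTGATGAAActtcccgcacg
SLC1A4, chr2:64989381-64989410, plus strand: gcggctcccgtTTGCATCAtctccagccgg
SLC1A5, chr19:46784893-46784922, minus strand: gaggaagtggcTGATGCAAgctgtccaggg
SLC38A1, chr12:46266502-46266531, minus strand: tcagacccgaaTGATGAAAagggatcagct
SLC7A1, chr13:29595663-29595692, minus strand: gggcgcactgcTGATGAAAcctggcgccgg
SLC3A2, chr11:62881725-62881748, plus strand: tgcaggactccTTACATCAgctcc

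In ASNS the match began 68 bases before the start site. It began 7 bases before the start in SLC1A4 and 4 bases before it in SLC38A1. In SLC1A5 it began 97 bases before the start site on which that window is placed. The matches in SLC7A1 and SLC3A2 began after a start site, at offsets of 8 and 38 bases. These are RefSeq starts, 1 of several in some genes, and all but that of SLC7A1 lie inside the gene bounds given below. ASNS, SLC38A1 and SLC7A1 held the same 8 letters in the same orientation, whereas the SLC1A4 and SLC3A2 matches read on the opposite strand. The windows of SLC7A5, SLC38A2 and SLC6A9 held no match, which says only that these letters are not in those windows. The core of the antioxidant response element, TGACNNNGC on either strand, lay in 4 windows, from SLC3A2, SLC7A5, SLC7A1 and SLC1A5, and in 13.3% of all windows. No binding was measured, and a match is a description of sequence.

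Libraries held 14652965 to 21327562 counts. GPX3 was measured first as a check of the labels. Its CPM values (counts relative to the size of each library, adjusted by TMM factors) were 173, 109 and 117 in the scramble replicates, 56.8, 55.2 and 55.5 with sh76, and 35.3, 28.4 and 28.3 with sh78. GPX3 fell to 41.9% of scramble with sh76 (edgeR adjusted p = 0.00264) and to 23.1% with sh78 (adjusted p = 0.000125). All 12 ovarian carcinoma epithelial markers looked at had at least 10 counts in every library; their summed FPKM (fragments per gene length and library size) was 2466 to 2805 in scramble, 2140 to 2510 with sh76 and 2095 to 2295 with sh78. The 12 markers of other cell types summed to 3.83 to 5.33, 4.20 to 6.60 and 4.87 to 5.97 FPKM in the same groups, with 5, 3 and 2 of them at 0 counts. Their part in the results below was not tested. In bulk RNA a smaller share of expressing cells and less RNA per cell cannot be told apart.

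The genes of the cystine exchanger, the leucine exchanger, their heavy chain and 1 of the 3 glutamine carriers fell with each hairpin. With sh76, 4 of the 10 genes fell: SLC7A11, SLC3A2, SLC7A5 and SLC1A5, and none rose (edgeR quasi-likelihood test, adjusted p under 0.05). Over all genes tested, 2.16% were lower and 1.43% higher by the same rule. With sh78, 6 of the 10 fell, the same 4 and SLC7A1 and SLC1A4, and none rose; over all genes 2.56% were lower and 1.85% higher. The fitted log2 fold change was below 0 for all 10 genes with each hairpin. Its median over the 10 was −0.48 with sh76 and −0.42 with sh78, against 0.01 over all genes tested with either. Among the genes called, the largest declines were in the cystine and leucine exchangers SLC7A11 and SLC7A5, and the smallest differences among all 10 were in the sodium-coupled carriers SLC38A1, SLC38A2 and SLC6A9. Both comparisons share the scramble libraries, so they are not independent of each other. On simulated libraries the share of false calls at this threshold was above the nominal one.

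The labels number replicates 1 to 3 in every group, and libraries with the same number deviated together. The main fit held no term for the replicate number, so its p-values and intervals leave this pairing out. With the replicate number as a block, 8 of the 10 genes fell with sh76 and 9 fell with sh78, all but SLC38A1 and SLC6A9 in the first and all but SLC6A9 in the second. The same fit called 10.7% and 10.1% of all genes lower, and 20.4% and 19.9% in either direction. Within same-numbered pairs, 9 of the 10 genes were lower than scramble in all 3 pairs with each hairpin. The exception was SLC6A9, lower in 1 of 3 pairs with sh76 and 2 of 3 with sh78. How many of all genes were lower in every pair was not counted, so the 9 of 10 is a description only. For SLC38A1 and SLC38A2 the log2 differences in pairs were small, from −0.20 to −0.05.

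**Figure D1:**
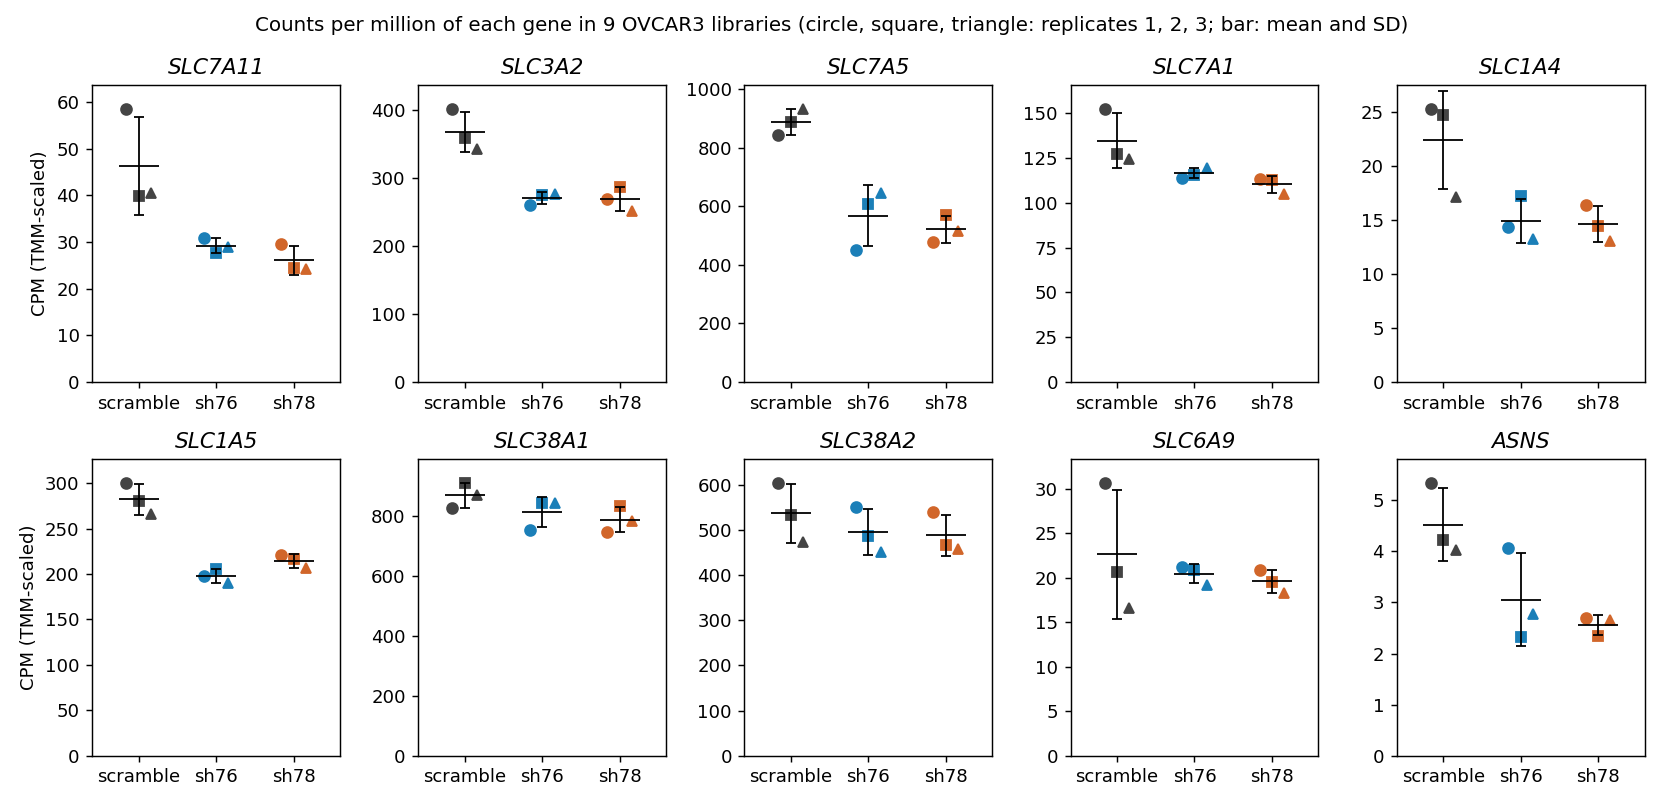
CPM of each of the 10 genes in the 9 libraries, with 1 panel per gene, the 3 groups along the horizontal axis and CPM from 0 on the vertical axis. Points are replicates (circle 1, square 2, triangle 3) and bars are the mean and SD (n = 3); for SLC7A11, SLC3A2, SLC7A5 and SLC1A5 every hairpin replicate lies below every scramble replicate, while the groups overlap for SLC38A1, SLC38A2 and SLC6A9.

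SLC7A11 (ENSG00000151012, chr4:138164097-138242349, minus strand), the cystine and glutamate exchanger, had 58.4, 39.96 and 40.5 CPM in the scramble replicates. It had 30.9, 27.7 and 28.9 CPM with sh76. With sh78 it had 29.6, 24.3 and 24.2 CPM. All 6 hairpin libraries were below all 3 scramble libraries, and scramble replicate 1 stood above the other two. SLC7A11 fell to 63.0% of scramble with sh76 (log2 fold change −0.67, SE 0.14, edgeR adjusted p = 0.0177). It fell to 56.4% with sh78 (−0.83, SE 0.14, adjusted p = 0.00437). With sh76 it missed the threshold without sh76 replicate 2 (adjusted p = 0.0961) or sh76 replicate 3 (0.0663) and when log2(FPKM + 1) was tested with limma (0.0721). Without scramble replicate 1, the high one, both calls remained. SLC7A11-AS1, on the other strand, shares 8.97% of its exon bases and had 0 to 9 counts in a library. Libraries were non-directional, so that low count does not show how many reads fell in the shared bases.

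SLC3A2 (ENSG00000168003, chr11:62856102-62888875, plus strand) is the heavy chain shared by SLC7A11 and SLC7A5. Its CPM values were 401, 359.6 and 342 in scramble, 261, 275 and 276 with sh76, and 269, 286 and 251 with sh78. Scramble and hairpin libraries did not overlap, and both hairpin groups lay in the same range. SLC3A2 fell to 73.6% of scramble with sh76 (log2 fold change −0.44, SE 0.07, edgeR adjusted p = 0.00315). It fell to 73.1% with sh78 (−0.45, SE 0.07, adjusted p = 0.00209). Both calls were kept when any 1 library was left out.

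SLC7A5 (ENSG00000103257, chr16:87830023-87869488, minus strand), the light chain known as LAT1, was the transporter gene of the set with the highest level per length. Its CPM values were 842, 888 and 931 in scramble, 449.7, 609 and 647 with sh76, and 478, 569.8 and 517 with sh78. Every hairpin library was below every scramble library, with sh76 replicate 1 the lowest. SLC7A5 fell to 64.1% of scramble with sh76 (log2 fold change −0.64, SE 0.12, edgeR adjusted p = 0.0147). It fell to 58.8% with sh78 (−0.77, SE 0.12, adjusted p = 0.00467). The sh76 call was lost without scramble replicate 2 (adjusted p = 0.0526) or scramble replicate 3 (0.0594).

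Both light chains fell by more than the heavy chain in the fitted values, so the count ratio of each light chain to SLC3A2 was compared in each library, a measure that needs no library scaling. The log2 ratio of SLC7A11 to SLC3A2 was −3.01 ± 0.21 (SD, n = 3) in scramble, −3.22 ± 0.12 with sh76 and −3.37 ± 0.19 with sh78. The ratio of SLC7A5 to SLC3A2 was 1.27 ± 0.19, 1.05 ± 0.24 and 0.96 ± 0.11 in the same order. These are ratios of counts, so the sign between the genes also reflects their lengths. With sh78 the groups did not overlap for either light chain, with differences of −0.36 and −0.32 and an exact two-sided permutation p of 0.1 for each, the smallest that 3 against 3 can give. With sh76 the groups overlapped, the differences were −0.21 and −0.22, and the exact permutation p was 0.3 for each. Over these 4 tests the Benjamini-Hochberg values were 0.2 for sh78 and 0.3 for sh76, and a design of this size cannot pass the threshold, so these p-values decide nothing in either direction. The ratio was lower than scramble in all 3 same-numbered pairs for each light chain with each hairpin. For SLC7A11 the pairs ran from −0.30 to −0.14 with sh76 and from −0.40 to −0.30 with sh78. For SLC7A5 they ran from −0.28 to −0.16 and from −0.40 to −0.24. The 12 values share the SLC3A2 counts and the scramble libraries, so they are not independent.

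SLC1A5 (ENSG00000105281, chr19:46774883-46788594, minus strand), known as ASCT2, is an exchanger of glutamine and other neutral amino acids. Its CPM values were 299.97, 279.9 and 266 in scramble, 198, 206 and 190.3 with sh76, and 221, 216 and 206 with sh78. All 3 scramble libraries were the highest, and the sh78 libraries all lay above the sh76 libraries. SLC1A5 fell to 70.2% of scramble with sh76 (log2 fold change −0.51, SE 0.06, edgeR adjusted p = 0.000541). It fell to 76.0% with sh78 (−0.40, SE 0.06, adjusted p = 0.0022). Among the 10 genes SLC1A5 alone kept both calls under all 18 alternatives run. Of its exon bases 23.8% are shared with genes on the other strand, mostly with AC008622.2, which had 0 to 7 counts in a library. As for SLC7A11-AS1, that low count does not show how many reads fell in the shared bases.

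SLC1A4 (ENSG00000115902, chr2:64988477-65023865, plus strand), known as ASCT1, the related exchanger of serine and alanine, was present at far fewer counts. It had 25.2, 24.7 and 17.1 CPM in scramble, 14.3, 17.2 and 13.2 with sh76, and 16.4, 14.4 and 12.99 with sh78. Scramble replicate 3 was low and lay just under sh76 replicate 2, so those groups overlapped, while all sh78 libraries were below all scramble libraries. The log2 fold change with sh76 was −0.58 (SE 0.16, edgeR adjusted p = 0.0566), which became a call with the replicate block (adjusted p = 2.2e-05), with DESeq2 (0.0144) and without scramble replicate 3 (0.0171). SLC1A4 fell to 65.6% of scramble with sh78 (−0.61, SE 0.16, adjusted p = 0.044). That call was lost without scramble replicate 1 (adjusted p = 0.118), scramble replicate 2 (0.161), sh76 replicate 2 (0.0517), sh78 replicate 2 (0.133) or sh78 replicate 3 (0.16).

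SLC7A1 (ENSG00000139514, chr13:29509410-29595688, minus strand), the cationic amino acid transporter CAT1, differed less. It had 152, 127 and 124 CPM in scramble, 114, 116 and 119 with sh76, and 113, 113 and 105 with sh78. All hairpin libraries were below all scramble libraries, and all sh78 libraries were below all sh76 libraries. The log2 fold change with sh76 was −0.21 (SE 0.08, edgeR adjusted p = 0.161), called only with the replicate block (adjusted p = 0.00449); without scramble replicate 1 it was −0.12. SLC7A1 fell to 82.0% of scramble with sh78 (−0.29, SE 0.08, adjusted p = 0.0496). The sh78 call was lost when any library other than scramble replicate 3 was left out, with adjusted p between 0.0516 (without sh76 replicate 1) and 0.173 (without sh78 replicate 3). Without scramble replicate 1 the sh78 log2 fold change was −0.19.

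SLC38A1 and SLC38A2 (SNAT1 and SNAT2; ENSG00000111371, chr12:46183063-46270017, and ENSG00000134294, chr12:46358189-46372867, both minus strand) are neighbouring genes for sodium-coupled carriers of glutamine and other small neutral amino acids. SLC38A1 had 827, 909.6 and 871 CPM in scramble, 754, 843 and 843 with sh76, and 748, 834 and 784 with sh78. Groups overlapped, and replicate 1 was the lowest library in each. The log2 fold change of SLC38A1 with sh76 was −0.10 (95% confidence interval −0.24 to 0.04, edgeR adjusted p = 0.496). With sh78 it was −0.14 (−0.28 to −0.0005, adjusted p = 0.283), an interval that just left out 0. The block left the sh76 value without a call (adjusted p = 0.0775) and made the sh78 value a call (0.00715).

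SLC38A2 had 604, 534 and 473 CPM in scramble, 552, 487 and 451 with sh76, and 540.1, 466 and 458 with sh78. Here replicate 1 was the highest library in every group, the opposite of SLC38A1. The log2 fold changes of SLC38A2 were −0.11 with sh76 (95% confidence interval −0.33 to 0.10, edgeR adjusted p = 0.612) and −0.14 with sh78 (−0.35 to 0.08, adjusted p = 0.543). Each was called with the replicate block (adjusted p = 0.0444 and 0.0134). Without scramble replicate 1, its high library, they were −0.024 and −0.047.

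SLC6A9 (ENSG00000196517, chr1:43991500-44031467, minus strand), the glycine transporter GLYT1, had 30.6, 20.7 and 16.5 CPM in scramble. It had 21.2, 20.9 and 19.2 CPM with sh76 and 20.8, 19.5 and 18.3 CPM with sh78. Every hairpin library lay inside the scramble range, which was set by a high replicate 1. The log2 fold changes were −0.14 with sh76 (95% confidence interval −0.52 to 0.23, edgeR adjusted p = 0.737) and −0.20 with sh78 (−0.58 to 0.18, adjusted p = 0.627). Without scramble replicate 1 they were 0.13 and 0.073, so the direction for SLC6A9 rests on that library. CCDC24, on the other strand, shares 7.83% of its exon bases and had 174 to 265 counts in a library.

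ASNS (ENSG00000070669, chr7:97852118-97872542, minus strand) had the lowest level of the set. Its counts were 83, 72 and 70 in scramble, 66, 48 and 58 with sh76, and 50, 34 and 41 with sh78. Scaled to CPM these were 5.34, 4.22 and 4.02, then 4.07, 2.33 and 2.77, then 2.69, 2.34 and 2.66. The sh78 libraries all lay below the scramble libraries, while sh76 replicate 1 reached into the scramble range. The log2 fold change was −0.58 with sh76 (SE 0.23, edgeR adjusted p = 0.197) and −0.81 with sh78 (SE 0.24, adjusted p = 0.0724). Both were calls with the replicate block (adjusted p = 0.0246 and 0.00234). The sh78 value was also a call with DESeq2 (0.0496), without the low-count filter (0.0372) and without sh76 replicate 1 (0.0409).

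The ASNS counts are uncertain, because 44.6% of its exon bases are shared with AC079781.5 on the same strand and a pseudogene copy, ASNSP1, also drew counts. AC079781.5 had 18 to 44 counts in a library and ASNSP1 had 9 to 27, at most 43.8% of the ASNS count. The 3 genes summed to 126, 129 and 115 counts in scramble, 109, 113 and 92 with sh76, and 91, 62 and 73 with sh78. In an alternative chosen after seeing the data, this sum had a log2 fold change of −0.43 with sh76 (edgeR adjusted p = 0.223) and −0.67 with sh78 (0.0546).

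**Figure D2:**
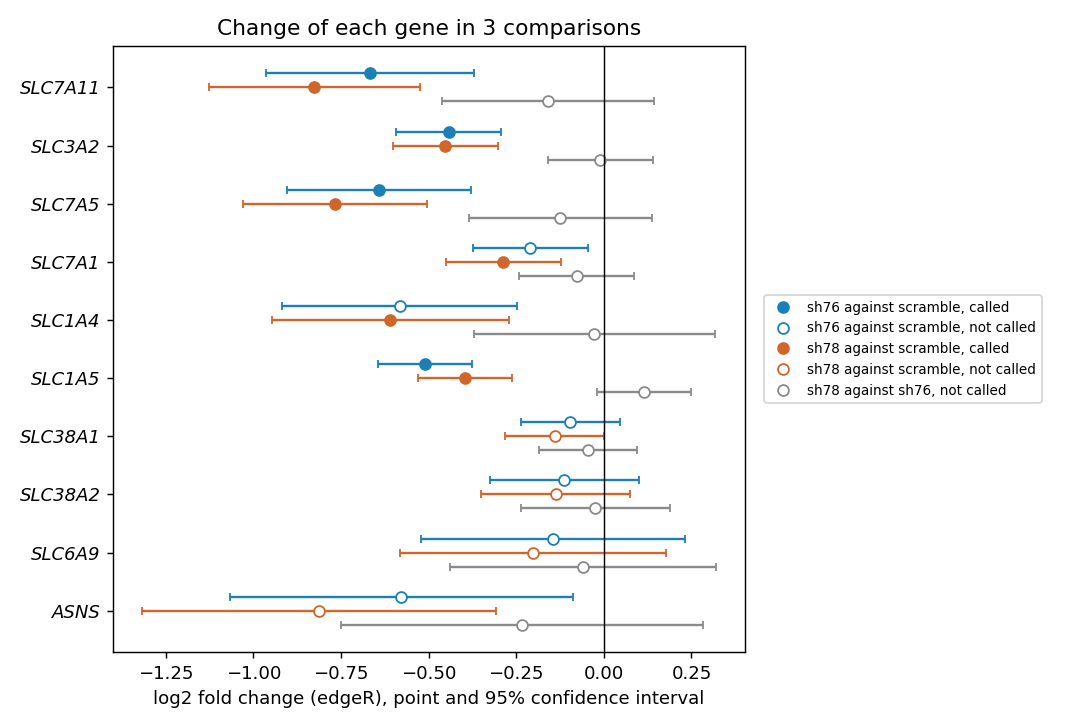
The edgeR log2 fold change of each gene (horizontal axis) with its 95% confidence interval, for sh76 against scramble, sh78 against scramble and sh78 against sh76; filled points passed an adjusted p under 0.05. All 20 points against scramble lie below 0, and every interval for sh78 against sh76 includes 0.

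The hairpins were then compared with each other, since they lowered GPX3 to different extents: the log2 fold change of GPX3 for sh78 against sh76 was −0.86 (edgeR adjusted p = 0.0194, past the threshold in 4 of the 9 omissions of a library). None of the 10 genes was called in this comparison, and 0 had an unadjusted p under 0.05, against 2768 of all 17023 genes tested. DESeq2 and the replicate block also called 0. Over all genes DESeq2 called 856 and the block called 18.3%. Over all genes 1.97% were called higher and 1.72% lower with sh78. The log2 fold changes of the 10 genes ran from −0.23 for ASNS to 0.11 for SLC1A5, with a median of −0.05.

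The intervals show how large a difference between hairpins these data leave possible. For SLC7A11 the log2 fold change of sh78 against sh76 was −0.16 (95% confidence interval −0.46 to 0.14), and for SLC7A5 it was −0.12 (−0.39 to 0.14). For SLC3A2 it was −0.01 (−0.16 to 0.14). SLC1A5 was the only gene of the set with a value above 0 (0.11, −0.02 to 0.25), and its sh78 libraries did not overlap its sh76 libraries. SLC7A1 did not overlap either, in the other direction (−0.08, −0.24 to 0.09). The ASNS interval was the widest, −0.75 to 0.28.

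Levels of different genes compare only per length, so the deposited FPKM values were used to rank the genes. In scramble SLC7A5 was the highest, at 186 ± 10.1 FPKM (SD, n = 3). SLC38A1 (86.3 ± 4.13), SLC1A5 (84.2 ± 4.74), SLC38A2 (80.9 ± 9.55) and SLC3A2 (70.6 ± 5.54) followed, each overlapping its neighbour in the order. These 5 genes for leucine, glutamine and neutral amino acid transport formed the abundant end of the set. SLC7A1 stood alone at 17.4 ± 1.91. SLC7A11 (4.77 ± 1.07), SLC6A9 (4.35 ± 1.38) and SLC1A4 (3.20 ± 0.64) overlapped in turn, and ASNS was the lowest at 1.01 ± 0.16. The level and rank of ASNS are uncertain, because 44.6% of its exon bases are shared with AC079781.5 on the same strand. How reads in shared bases were counted is not given.

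With either hairpin the order changed in 2 places. SLC38A2, at 74.5 ± 7.56 FPKM with sh76 and 73.4 ± 6.70 with sh78, ranked above SLC1A5, at 58.8 ± 2.20 and 63.9 ± 2.14, with no overlap. SLC6A9, at 3.92 ± 0.20 and 3.77 ± 0.24, ranked above SLC7A11, at 2.99 ± 0.17 and 2.68 ± 0.31, again with no overlap. SLC38A1 and SLC38A2 were the only neighbours in the order that overlapped in the hairpin groups. SLC7A5 stayed the highest, at 119 ± 21.9 FPKM with sh76 and 109 ± 9.84 with sh78. ASNS stayed the lowest, at 0.68 ± 0.20 and 0.57 ± 0.04, with the same limit from its shared exon bases.

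**Figure D3:**
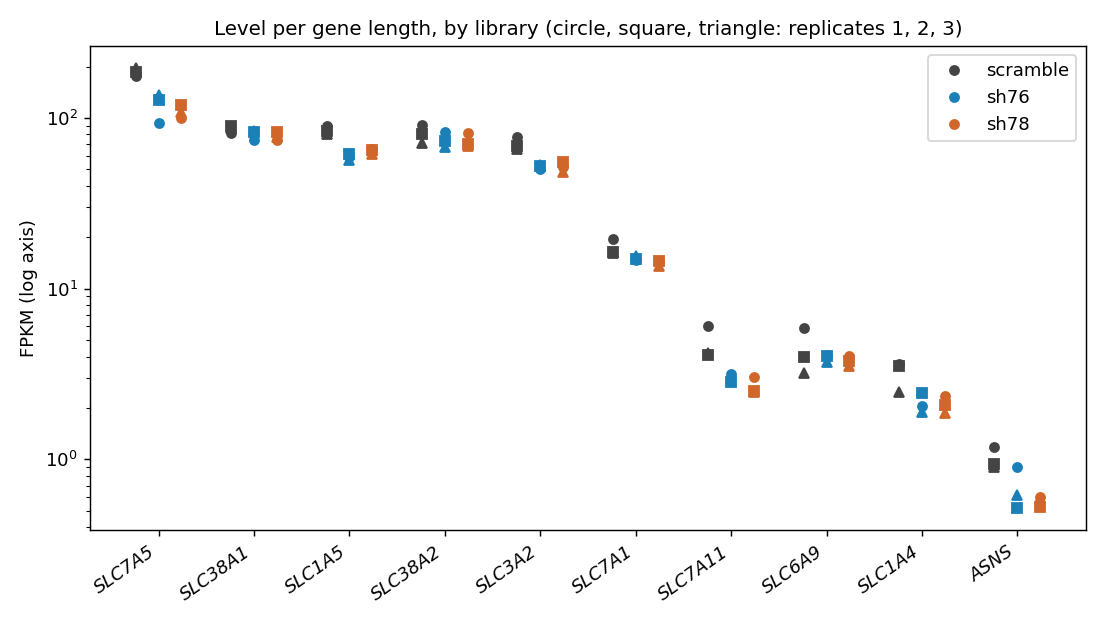
Deposited FPKM (vertical log axis) of each gene in the 9 libraries, in order of the scramble mean; colours mark the group and symbols the replicate. SLC7A5 lies highest in all groups, from 93.8 to 196 FPKM, and ASNS lowest, from 0.52 to 1.19 FPKM. The ASNS level is uncertain because of its shared exon bases.

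Replicate 1 was the highest library in every group for SLC7A11, SLC38A2, SLC6A9 and ASNS, and the lowest in every group for SLC7A5 and SLC38A1. SLC7A11, the most reduced of the listed transporter genes, and SLC7A5, the light chain that shares its heavy chain, thus had opposite replicate patterns.

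The genes whose pattern over the 9 libraries was most like that of SLC7A11 were sought among 12806 genes with a mean of at least 1 FPKM, by the root mean square difference of log2 CPM centred on each gene's mean. They were STC2, a secreted glycoprotein of the stress response (difference 0.08), MTHFD2, a mitochondrial folate enzyme (0.10), and GPT2, which makes alanine from pyruvate (0.11). STC2 had 153, 110.0 and 105 CPM in scramble, 78.4, 78.6 and 74.2 with sh76, and 76.3, 72.8 and 61.4 with sh78. Like SLC7A11, it was high in scramble replicate 1. The genes most like ASNS were PINK1, a mitochondrial kinase (0.09), RNF19B, a ubiquitin ligase (0.14), and ALDH2, mitochondrial aldehyde dehydrogenase (0.16); of the exon bases of PINK1, 41.7% are shared with other genes, mostly PINK1-AS. These distances describe 9 libraries and carry no test.

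Among 39 other amino acid transporter genes, 24 had enough counts to test. With sh76 none was called by edgeR, and the block called 6, where it called 20.4% of all genes. Of the 24, 4 had an unadjusted p under 0.05 and DESeq2 called 0. Over all 17023 genes these counts were 2959 and 880. Their median log2 fold change was −0.17. With sh78, 2 rose and 2 fell, with a median of 0.01, against 1.85% of all genes higher and 2.56% lower; the block called 11, against 19.9% of all genes. SLC1A1, a glutamate and cysteine importer, rose (log2 fold change 0.90, adjusted p = 0.0239), as did SLC6A19, a neutral amino acid importer of kidney and gut (3.29, adjusted p = 0.00842). SLC6A20, an imino acid carrier, fell (−1.24, adjusted p = 0.0375), as did SLC7A2, an arginine carrier related to SLC7A1 (−0.77, adjusted p = 0.0249). The count called was 1 without scramble replicate 2, scramble replicate 3, sh78 replicate 1 or sh78 replicate 2. Over all genes the count fell from 750 to 418, 458, 531 and 469 in these omissions. SLC6A19 had very few counts: 2, 1 and 3 in scramble, 4, 3 and 0 with sh76, and 24, 23 and 13 with sh78. It passed the filter on low counts only through the sh78 libraries, where it was high. Its values with sh78 are therefore descriptions and not tests. SLC1A1 and SLC7A2 were named after their values were seen.

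Among 24 enzymes of amino acid synthesis, 9 fell with sh76 and 8 with sh78, and none rose. Over all genes 2.16% and 2.56% were lower. The medians over the list were −0.23 and −0.10. PSAT1, the aminotransferase of serine synthesis, had 467, 422 and 408 CPM in scramble, 254, 273 and 266 with sh76, and 259, 284 and 250.02 with sh78. Its log2 fold change was −0.71 with each hairpin (edgeR adjusted p = 7.92e-05 and 7.32e-05). GPT2 fell by 0.58 and 0.64 on the log2 scale with sh76 and sh78 (adjusted p = 0.0171 and 0.00831). The proline synthesis enzyme PYCR1 fell by 0.52 and 0.48 (0.00114 and 0.00126), and the serine to glycine enzyme SHMT2 by 0.44 and 0.38 (0.0038 and 0.00767). The sh76 count was 4 without sh76 replicate 2, where the count over all genes fell from 610 to 237. With the block the sh76 count was 16 (20.4% of all genes). The GPT2 call with sh76 was lost without sh76 replicate 2 (0.0845) or 3 (0.0711).

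Of 18 genes of the eIF2 alpha and ATF4 arm, 9 fell and 1 rose with sh76, and 9 fell with sh78. Over all genes 2.16% were lower and 1.43% higher with sh76, and 2.56% were lower with sh78. The medians were −0.33 and −0.40. ATF4 mRNA, named after its values were seen, fell by 0.27 with sh76 (edgeR adjusted p = 0.0161) and 0.37 with sh78 (0.00189) on the log2 scale. TRIB3, a pseudokinase that restrains ATF4, fell by 0.72 and 0.82 (0.000129 and 5.3e-05). CHAC1, a glutathione-degrading enzyme, fell by 0.87 and 1.12 (0.017 and 0.00346), and STC2 by 0.67 and 0.80 (0.0162 and 0.00494). DDIT3, which encodes the transcription factor CHOP, fell by 0.57 and 0.98 (0.0477 and 0.00211), although 39.6% of its exon bases are shared with other genes. The gene that rose with sh76 was EIF2AK3, the kinase PERK (log2 fold change 0.51, adjusted p = 0.0177).

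Single libraries mattered for the calls with sh76, in this arm and over all genes. The count called in the arm was 3 without sh76 replicate 2, where the count over all genes fell from 610 to 237. The sh76 call of CHAC1 was lost without scramble replicate 2 (adjusted p = 0.0612), sh76 replicate 2 (0.0536) or sh76 replicate 3 (0.0633). That of STC2 was lost without sh76 replicate 2 (0.0707) or 3 (0.0682). That of DDIT3 was lost in 7 of the 9 omissions, all but sh78 replicates 1 and 3, with adjusted p up to 0.17. With the block, 12 genes of the arm were called with sh76 and 16 with sh78, where 20.4% and 19.9% of all genes were called.

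Of 16 genes of the NRF2 axis none was called with sh76 by edgeR, with a median of −0.03. Over all genes edgeR called 2.16% lower and 1.43% higher with sh76. Of the 16, 2 had an unadjusted p under 0.05 and DESeq2 called 0, where these counts were 2959 and 880 over all 17023 genes. With sh76 the block called 6, where it called 20.4% of all genes. With sh78, NQO1, a quinone reductase, and TXNRD1, thioredoxin reductase 1, fell (log2 fold changes −0.40 and −0.54, edgeR adjusted p = 0.0155 and 0.00162), with a median of −0.09. Over all genes edgeR called 2.56% lower and 1.85% higher with sh78. The block called 6 of the 16, where it called 19.9% of all genes. The edgeR count with sh78 was 1 without scramble replicate 3, sh78 replicate 1 or sh78 replicate 2, and 4 without scramble replicate 1. Over all genes the count was 458, 531, 469 and 682 in these omissions, against 750 with every library. Of 26 genes through which mTORC1, a growth kinase, senses amino acids, 1 was called with each hairpin: LAMTOR5, a lysosomal scaffold subunit, fell with sh76 (−0.40, adjusted p = 0.0411), and RRAGD, a Rag GTPase, fell with sh78 (−0.63, adjusted p = 0.00402). Over all genes edgeR called 2.16% lower with sh76 and 2.56% lower with sh78. The medians of the mTORC1 list were −0.01 and 0.03, and the block called 5 and 4, near its share of all genes (20.4% and 19.9%). The mTORC1 list had 0 calls with sh76 when any library but scramble replicate 1 or sh78 replicate 1 was left out. In those omissions 237 to 553 genes were called over all genes, against 610 with every library.

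**Figure D4:**
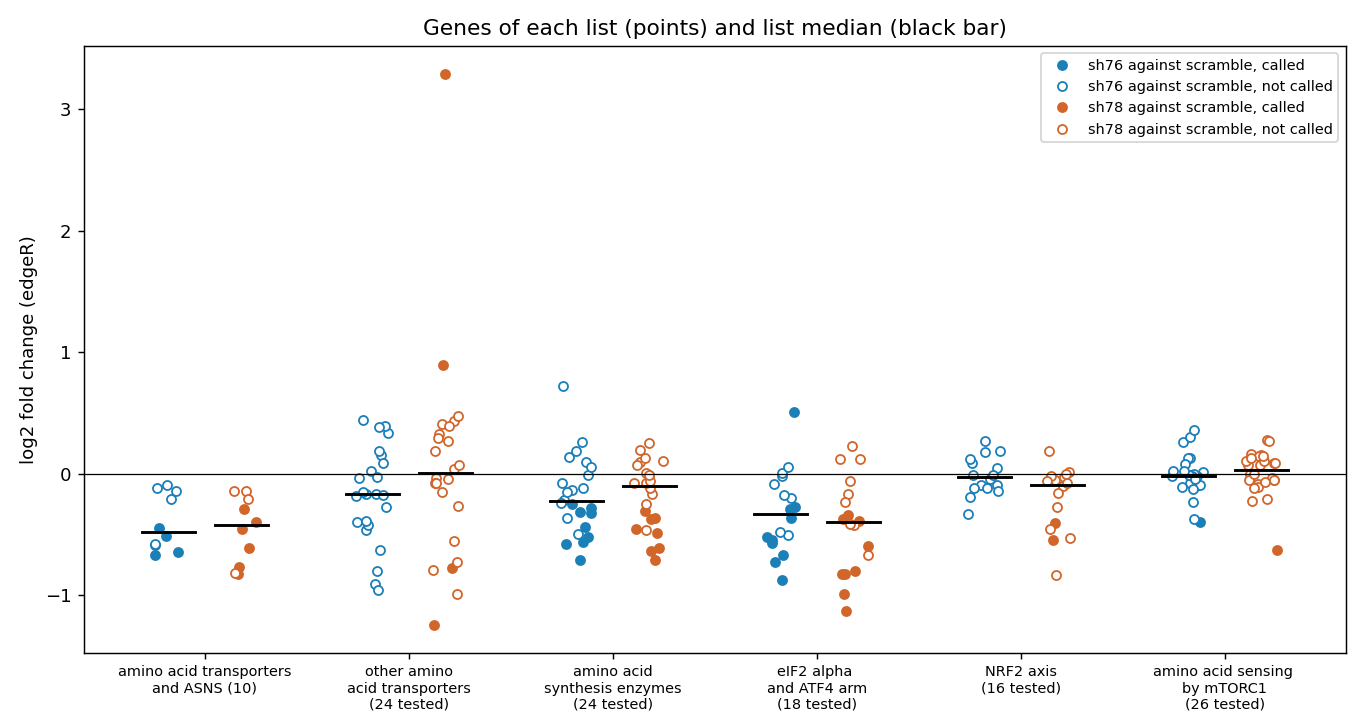
The edgeR log2 fold change against scramble (vertical axis) of every tested gene in 6 lists (horizontal axis), blue for sh76 and orange for sh78, with filled points for an adjusted p under 0.05 and a black bar at the median. The medians of the 10 genes (−0.48 and −0.42) and of the eIF2 alpha and ATF4 arm (−0.33 and −0.40) lie lowest, and the single point above 3 is SLC6A19 with sh78.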

How the data were processed

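Per the submitters' processing notes, the tools named were HISAT2 2.0.5 and featureCounts 1.5.0-p3 with build hg38; their settings are not given in the sources used here. Libraries were poly-T selected and non-directional, per the labels' protocols. Strand therefore could not separate reads in exon bases shared by genes on opposite strands. The authors deposited raw counts per gene and FPKM values; the deposited FPKM equalled counts divided by gene length and by 98.09% to 102.97% of the library total. Gene identifiers matched GENCODE 29 in full.

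The main test was the edgeR quasi-likelihood F test on the counts (edgeR 4.0.16, R 4.3.3; filterByExpr, minimum count 10, minimum total 15; TMM; robust glmQLFit over all 9 libraries; 3 contrasts; Benjamini-Hochberg over 17023 genes; called at an adjusted p under 0.05). The common biological coefficient of variation was 10.4%. Tested on simulated data, the fit recovered most changed genes, with a share of false calls above the nominal one. The simulated libraries were drawn independently, without the shared deviations of same-numbered libraries described below. The simulation therefore does not give the share of false calls in these data. Alternatives used DESeq2 1.42.0, DESeq2 size factors, no filter, only the groups compared, limma 3.58.1 on log2(FPKM + 1) or + 0.1, a replicate block, and each library left out.

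Deviations from group means correlated at r of 0.142 to 0.391 in 9 same-numbered pairs and −0.31 to 0.0639 in 18 others, across genes. The numbers were therefore taken to pair libraries in the replicate block and in the pair differences, while the main fit held no replicate term. The labels do not say what a number marks. No replicates were duplicates.

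The genes and lists were chosen with earlier results of these data known. Besides the 10 genes and GPX3, list genes were named when called with both hairpins with the same sign (up to 4 per list, by size) or as the 2 largest calls between hairpins, plus the 3 genes most like SLC7A11 and ASNS. Promoter sequences are from RefSeq. Intervals cover the spread between libraries.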

Additional observations from a re-analysis of the deposited data

Results flagged for a closer look

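The genes below differed between the hairpins themselves (sh78 against sh76, edgeR, adjusted over all genes tested), and none of the 10 genes of the report is among them. GPX3 had a log2 fold change of −0.86 (adjusted p = 0.0194), which missed the threshold without any 1 of sh76 replicates 1, 2 and 3 or sh78 replicates 2 and 3 (0.0604 to 0.0843). SLC6A19 had 3.27 (adjusted p = 0.00913), but it passed the low-count filter only through sh78, so this value is a description and not a test. Its pooled counts of 60 with sh78 and 7 with sh76 give a ratio of 10.2 (95% interval 4.67 to 26.5, counting error only). The SLC6A19 call was lost without sh76 replicate 2 (0.0502). SLC6A20 had −1.40 (adjusted p = 0.0219), lost without sh76 replicate 2 or 3 or sh78 replicate 2 or 3 (0.0805 to 0.105). BCAT1, a branched-chain aminotransferase, had 0.69 (adjusted p = 0.000247), with 87.8, 102 and 106 CPM with sh76 and 155, 160.3 and 164 with sh78. EIF2AK3 had −0.57 (adjusted p = 0.00941). NQO1 had −0.59 (adjusted p = 0.00169) and TXNRD1 −0.35 (adjusted p = 0.0281), the latter lost without sh76 replicate 2 or 3 or sh78 replicate 1 or 2 (0.0684 to 0.114). RRAGD had −0.89 (adjusted p = 0.000419). LAMTOR5 had 0.39 (adjusted p = 0.043), lost in 7 of 9 omissions of a library, all but scramble replicates 1 and 3 (0.0565 to 0.155).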

How the results depend on the processing

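Called over all genes for sh76 against scramble, sh78 against scramble and sh78 against sh76 were 610, 750 and 629 genes. These counts were 1149, 1212 and 1125 without the low-count filter, 3467, 3388 and 3117 with the replicate block, 336, 450 and 311 on log2(FPKM + 1), 324, 451 and 324 on log2(FPKM + 0.1), and 121, 151 and 94 on unfiltered FPKM (48 of the 151 higher, against 315 of the 750). Leaving out 1 library gave 237 to 655, 418 to 810 and 273 to 780. DESeq2 called 880, 989 and 856 genes in the same order. Of the 10 genes, 4 and 6 were called against scramble; 3 to 4 and 4 to 6 when leaving out 1 library, 8 and 9 with the replicate block, and 1 and 1 on unfiltered FPKM. Leaving out 1 library moved SLC6A9 between −0.33 and 0.13 with sh76 and −0.39 and 0.073 with sh78, above 0 without scramble replicate 1. For sh78 against sh76, leaving out 1 library also moved 4 genes near 0 across it: SLC38A2 from −0.10 to 0.058, ASNS from −0.40 to 0.013, SLC3A2 from −0.057 to 0.040 and SLC1A4 from −0.12 to 0.089. The cause was not tested. ASNS had only 34 to 83 counts a library, and why its counts were low was not tested.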
